A study of Mus musculus with 12 samples.

Results

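The Dlk1-Dio3 locus is an imprinted stretch of mouse chromosome 12 that carries one of the largest microRNA clusters of the genome, and 45 mature microRNA names of this cluster were followed here in plasma vesicles. The names were taken from a fixed list, and all 45 were found among the 1915 mouse names of the count table. The libraries were made from small RNA of extracellular vesicles, precipitated out of plasma; the donors were male mice of C57BL/6J, an inbred laboratory strain. One group of 6 libraries came from mice 8 days after bile duct ligation (BDL), an operation that ties off the bile duct and stops bile flow, and the other 6 from mice 8 days after a sham operation. All mice were of the same strain, and no transgene, deletion or further treatment is named in the labels; age is not stated. The labels name liver as the tissue but extracellular vesicles as the site, and the protocol starts from plasma.

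At this locus the protein-coding genes Dlk1, Rtl1 and Dio3 are expressed from the paternal chromosome, and the non-coding RNAs Meg3, Rian and Mirg, together with the microRNAs, from the maternal one. The microRNAs are processed from long transcripts, each hairpin giving a 5p and a 3p strand, and a strand binds its targets mainly through its seed, bases 2 to 8. The cluster is known for its high expression in embryo, placenta and adult brain and for low levels in most adult tissues, liver among them. miR-134-5p is best known from neurons, where it represses Limk1 in dendrites, and miR-127, miR-136, miR-433 and miR-434 lie antisense to Rtl1, whose transcript they can cleave.

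The 45 names belong to 38 hairpins between positions 109571990 and 109743795 of chromosome 12 (GRCm38, plus strand), a span of 171.8 kb. Mature sequences were found in the RefSeq table (GRCm38.p6) for 42 of them, while mmu-miR-376c-3p, mmu-miR-485-5p and mmu-miR-487b-3p had no entry. The 6 names on which the comparison of BDL and sham turns are printed 5′ to 3′ with the seed in capitals.
mmu-miR-434-5p: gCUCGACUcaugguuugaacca
mmu-miR-434-3p: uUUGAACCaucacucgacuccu
mmu-miR-136-5p: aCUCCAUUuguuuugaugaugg
mmu-miR-134-5p: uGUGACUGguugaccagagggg
mmu-miR-485-3p: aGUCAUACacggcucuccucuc
mmu-miR-409-3p: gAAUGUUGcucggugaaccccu

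These 6 have 6 different seeds, and the 16 tested members with a sequence have 16. Among names of the table with a sequence, the only seed partner found was that of mmu-miR-379-5p. It shares its seed with miR-1193-5p, which had 5 counts in all libraries together. The arms of miR-434 hold 2 runs of letters in common. Bases 1 to 9 of the 3p arm are bases 14 to 22 of the 5p arm, and bases 13 to 20 of the 3p arm are bases 2 to 9 of the 5p arm. Another pair is shown because its members are nearly alike along their whole length.
mmu-miR-300-3p: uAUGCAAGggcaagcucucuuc
mmu-miR-381-3p: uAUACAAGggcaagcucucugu

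Counted from 1 at the 5′ end, mmu-miR-300-3p and mmu-miR-381-3p differ by 3 substitutions, G4A, U21G and C22U, the first of them in the seed. How reads that match both were assigned is not given in the sources used here.

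Library totals ran from 121003 to 3506914 counts in BDL and from 659302 to 2684636 in sham. BDL 4, with 121003 counts, stands apart by depth: 3 counts, the upper limit that a count of 0 allows, are 24 CPM there (CPM is a count scaled to a common library size) and between 0.624 and 5.51 CPM in the other BDL and sham libraries. Intervals and limits cover counting error only, since no molecular identifiers are described. The sample codes end in 24 or 26, of unstated meaning, with 3 libraries per group and suffix. Each first digit occurs in 2 libraries, always of one group. The series' design text speaks of 6 animals per group, but the labels do not tie libraries to animals, so p-values measure the spread between these libraries, which may be partly technical. Hepatocyte markers were present in every library, summing to 4013 to 25209 CPM in sham and 74747 to 327680 CPM in BDL, although miR-122-3p had no count in sham.

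The cluster was a small part of vesicle microRNA in both groups. Its 45 names summed to 4495, 1089, 2491, 86, 1746 and 832 counts in BDL 1 to 6, and to 2399, 1568, 909, 881 and 780 counts in sham 1, 2, 3, 5 and 6, with fewer in sham 4. As a share of mouse counts this was lowest at 0.0711% in BDL 4 (95% Wilson interval 0.0576 to 0.0878%) and highest at 0.175% in BDL 2 (0.165 to 0.185%), with a median of 0.117% over the BDL libraries. In sham the lowest share was 0.0443% in sham 4 (0.041 to 0.0479%) and the highest 0.118% in sham 6 (0.11 to 0.127%), with a median of 0.0658%. The groups overlapped, because sham 6 lay above 3 of the BDL libraries. The BDL mean was 0.119 ± 0.034% and the sham mean 0.0714 ± 0.0283% (SD over n = 6 libraries), given without a test, since the names were chosen as a set.

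**Figure D1:**
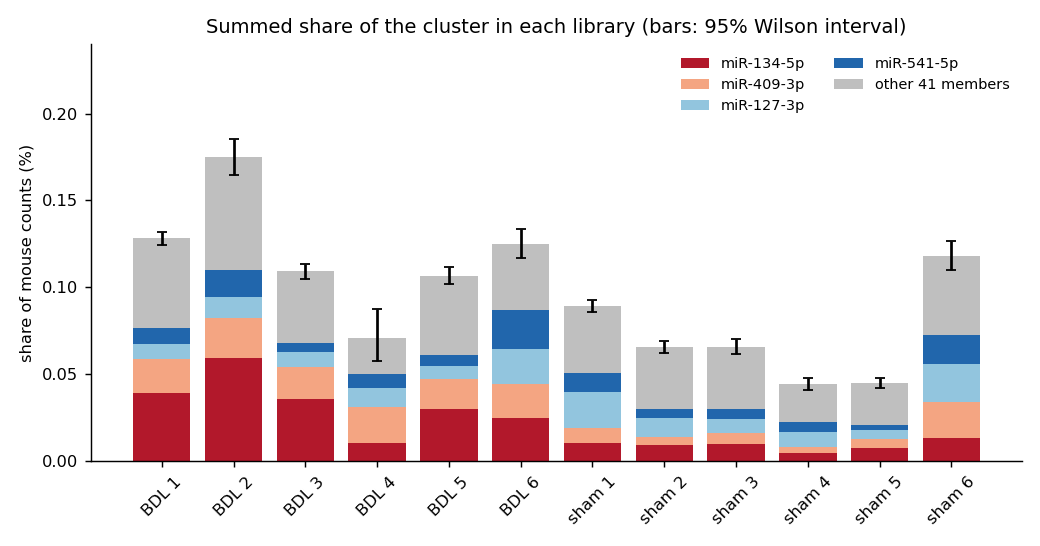
Each bar is the share of a library's mouse counts (percent, y axis) taken by the 45 cluster members, divided into the 4 members with the most counts and the rest, with the 95% Wilson interval of the sum. The shares run from 0.0443% in sham 4 to 0.175% in BDL 2, and sham 6, at 0.118%, lies above 3 BDL libraries.

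A few members held most of these counts. mmu-miR-134-5p was 23.5% of the cluster's counts over all libraries, mmu-miR-409-3p 13.4%, mmu-miR-127-3p 11.9% and mmu-miR-541-5p 8.53%. miR-134-5p made up 30.2% of the cluster's BDL counts and 13.3% of its sham counts, and miR-127-3p 7.76% and 18.2%. In counts summed over libraries, miR-127-3p was therefore the top member in sham and miR-134-5p in BDL. This order did not hold in every library. miR-134-5p had more counts than miR-127-3p in sham 3 (137 against 112) and sham 5 (153 against 111). In BDL 4 miR-409-3p had 25 counts and miR-134-5p 13. Without miR-134-5p, the cluster's mean share came to 0.0857 ± 0.0198% for BDL and 0.0621 ± 0.0257% for sham (SD over n = 6 libraries).

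Of the 45 members, 17 passed the filter on low counts and were tested. They held 94.8% of the cluster's counts, with 146 to 4198 counts each. The other 28 had 0 to 94 counts over all libraries (median 30), and were left out of the main test by that filter. A member that passed only through the group where it is high would be among the 17, so the counts that follow describe the tested names and not the cluster. Between 13 and 41 members per library had at least 1 count in BDL, and between 26 and 35 in sham. Thinned to 121003 counts, the expected numbers were 13 to 21.4 in BDL and 14.9 to 19.6 in sham.

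Between BDL and sham, 5 of the 17 tested members were higher (29.4%), 1 was lower (5.88%) and 11 did not pass the threshold (edgeR's quasi-likelihood test; threshold 0.05 on the p adjusted by Benjamini-Hochberg over 341 mouse names). Over all 341 names, 24.6% were higher and 18.2% lower, so the share of members that were higher lies near that of all names. The median log2 fold change of the 17 was 0.57, and that of all tested names 0.03. The groups did not overlap in CPM for 1 member in each direction (5.88% each), against 11.7% higher and 9.38% lower among all names tested. The higher members were miR-136-5p, miR-134-5p, miR-485-3p, miR-409-3p and miR-434-3p, and the lower one was miR-434-5p.

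**Figure D2:**
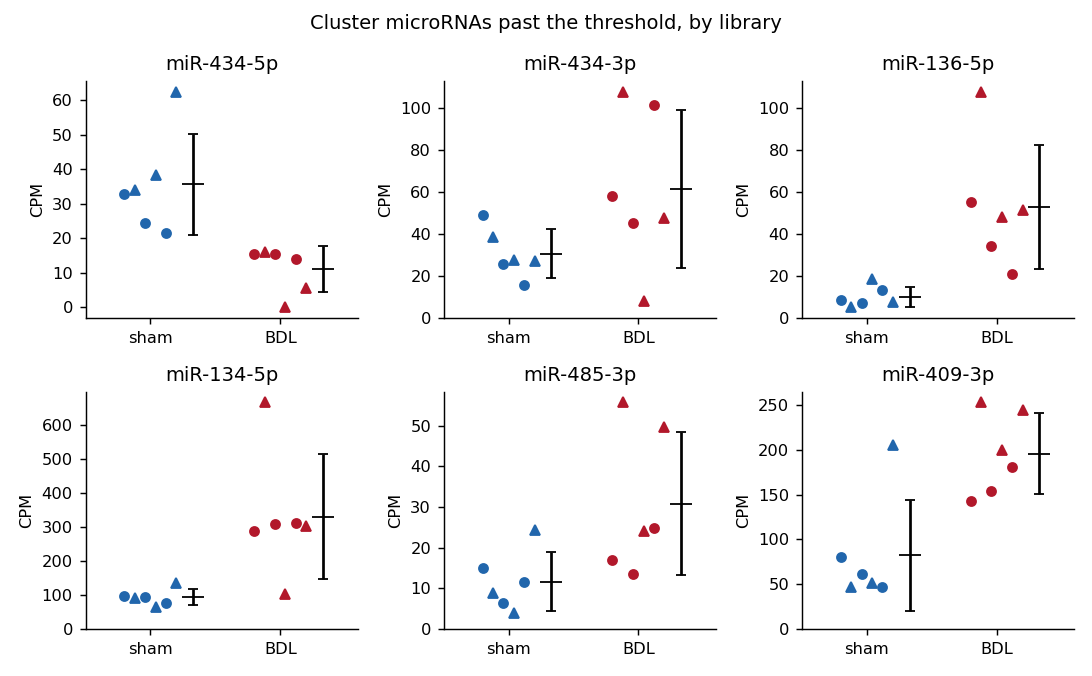
CPM of the 6 members past the threshold in each library (y axis, CPM), with the mean and SD of 6 libraries beside each group; circles are code suffix 24 and triangles suffix 26. For miR-136-5p every BDL library lies above every sham library, the closest being BDL 5 at 21 CPM and sham 4 at 18.2 CPM. For miR-434-5p every BDL library lies below every sham library, BDL 4 with a count of 0.

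Of the 8 members that lie antisense to Rtl1, 5 were tested: miR-136-5p and miR-434-3p were higher, miR-434-5p was lower, and miR-127-3p and miR-433-3p did not pass the threshold. miR-136-5p (hairpin Mir136, chromosome 12, 109595327 to 109595388, plus strand, opposite an exon of Rtl1) had 265, 60, 91, 6, 33 and 28 counts in BDL 1 to 6 and 25, 12, 10, 19, 26 and 5 in sham 1 to 6. In CPM its BDL libraries ran from 21 over a median of 49.7 to 107.8, and its sham libraries from 4.88 over 8.14 to 18.2. All 6 BDL libraries exceeded the highest sham library, but narrowly at the closest point. BDL 5 had 21 CPM from 33 counts, sham 4 had 18.2 CPM from 19 counts, and BDL 4 rests on 6 counts. Its log2 fold change was 2.41 ± 0.43 (SE; edgeR adjusted p = 4.07e-04), which is 5.31-fold, with 1.97 ± 0.45 in suffix 24 and 2.77 ± 0.58 in suffix 26. The other arm, mmu-miR-136-3p, had 18 counts in BDL and 24 in sham and was not tested. The ratio of the 3p to the 5p arm in summed counts was 0.0373 in BDL and 0.247 in sham. It rests on few 3p counts, 13 of the 18 in BDL coming from BDL 1. The 3p arm had no count in BDL 4, BDL 6, sham 1 and sham 6, and the ratio was not tested.

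The arms of miR-434 went opposite ways (Mir434, 109594506 to 109594599, plus strand, opposite an exon of Rtl1). miR-434-5p had 75, 9, 41, 0, 22 and 3 counts in BDL 1 to 6, and 95, 84, 35, 40, 43 and 41 in sham 1 to 6. In CPM this was 0 to 16.2 in BDL (median 14.7) and 21.7 to 62.5 in sham (median 33.5), so every BDL library lay below every sham library. The 0 in BDL 4 allows up to 24 CPM and does not by itself place that library below sham. The log2 fold change was -1.45 ± 0.40 (edgeR adjusted p = 0.00752), with -2.32 ± 0.64 in suffix 26 (adjusted p = 0.0101) and -0.78 ± 0.36 in suffix 24, where the call was lost (adjusted p = 0.115).

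miR-434-3p had 279, 60, 121, 1, 159 and 26 counts in BDL and 142, 95, 37, 29, 31 and 18 in sham. Its CPM ran from 7.99 over 52.9 to 107.8 in BDL and from 15.6 over 27.6 to 49.2 in sham, and the groups overlapped, with BDL 4 lowest of all. The log2 fold change was 1.05 ± 0.41 with an adjusted p of 0.0474, close to the threshold. It stayed past the threshold in 4 of 23 other settings. Within suffix 24 it was 1.18 ± 0.46 (adjusted p = 0.0674). Within suffix 26 it was 0.84 ± 0.56 (adjusted p = 0.251). The call ended without any one of BDL 1, 2, 3, 5 or 6 or of sham 2 to 6, at 0.76 to 1.13 (adjusted p from 0.0503 to 0.165), and with DESeq2's size factors (0.90, adjusted p = 0.0732).

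The ratio of these arms within a library needs no scaling between libraries. The 3p arm had 646 counts against 150 of the 5p arm in BDL, a ratio of 4.31, and 352 against 338 in sham, a ratio of 1.04. Per library, the log2 ratio with 0.5 counts added to each arm was 1.55 to 2.92 in BDL and -1.17 to 0.58 in sham, and the groups did not overlap. It averaged 2.24 ± 0.64 over BDL and -0.21 ± 0.62 over sham libraries (SD, n = 6 per group), a difference of 2.45 (two-sided exact permutation test over the libraries, p = 0.00216, the smallest possible, and 0.00433 adjusted over 2 hairpins). The difference was 2.02 within suffix 24 and 2.87 within suffix 26, where 3 against 3 libraries cannot give a p below 0.1. This test was chosen after the counts had been seen. Hairpins outside the cluster were not tested in this way, so how common such a difference is among all hairpins is not known here. BDL 4 adds 1 read to it, with 0 on the 5p arm, so its log2 ratio of 1.58 depends on the 0.5 counts added. Without BDL 4 the difference was 2.58. The runs that the arms share are 9 and 8 letters long, and only a read no longer than its run could match both arms exactly. Read lengths were not used here, and the placing of reads on the arms was not tested.

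**Figure D3:**
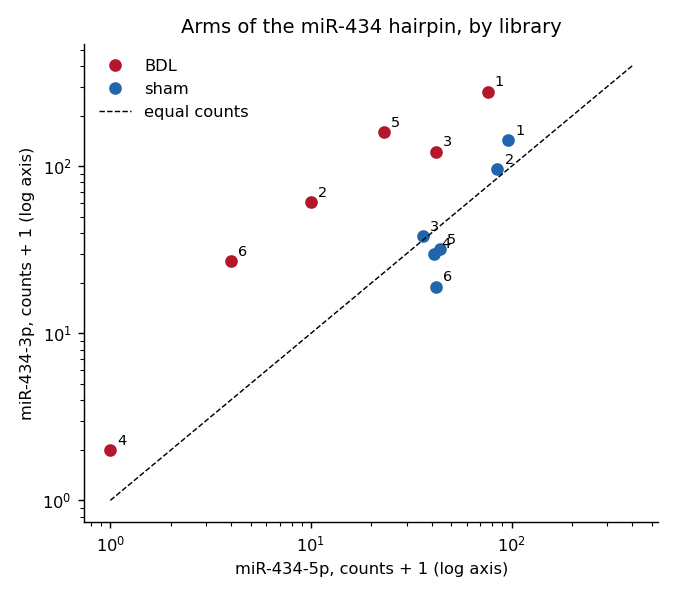
Counts of the 3p arm (y axis) against the 5p arm (x axis) of the miR-434 hairpin in each library, with 1 count added and both axes logarithmic; the numbers are library numbers and the dashed line marks equal counts. All 6 BDL libraries lie above the line, BDL 4 through 1 count against 0. Sham 1, 2 and 3 lie just above it and sham 4, 5 and 6 below it.

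The other hairpin with both arms tested was that of miR-485 (Mir485, 109734902 to 109734974, in an exon of Mirg). miR-485-3p had 81, 31, 36, 3, 39 and 27 counts in BDL and 43, 22, 9, 4, 23 and 16 in sham. This was 13.5 to 55.7 CPM in BDL (median 24.4) and 3.84 to 24.4 CPM in sham (median 10.3), with 3 BDL libraries above the highest sham library. The log2 fold change was 1.40 ± 0.47 (edgeR adjusted p = 0.0238), with 1.94 ± 0.63 among suffix 26 libraries (adjusted p = 0.0247) but 0.73 ± 0.45 among those of suffix 24 (adjusted p = 0.238). Its call ended without BDL 2 or 6 or sham 2, 3, 4 or 5, at 1.0 to 1.33 (adjusted p from 0.0584 to 0.091). It also ended when the libraries that share a first code digit were summed (1.03, adjusted p = 0.081) and with no count filter (1.19, adjusted p = 0.111). miR-485-5p had 0.60 ± 0.45 (adjusted p = 0.31). The log2 ratio of the 3p to the 5p arm differed by 1.16 between the groups (exact permutation p = 0.0714, also after adjustment over 2 hairpins). The difference was 0.05 among suffix 24 libraries (exact p = 1) and 2.27 among those of suffix 26 (exact p = 0.1, the smallest possible). Without BDL 4 it was 0.69 (exact p = 0.143), and the exact p fell to 0.0303, 0.0368 and 0.0411 without BDL 3, BDL 5 and sham 5. These last 3 values and that of suffix 26 include BDL 4, which had 3 counts against 0. Its log2 ratio of 2.81, the highest of all libraries, depends on the 0.5 counts added.

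Further along the cluster, in and near Mirg, the abundant members miR-134-5p and miR-409-3p were higher in BDL. miR-134-5p (Mir134, 109734139 to 109734209, in an exon of Mirg) had 1384, 372, 823, 13, 491 and 165 counts in BDL and 278, 227, 137, 66, 153 and 89 in sham. Its BDL libraries ran from 103.9 over a median of 305.4 to 668.5 CPM and its sham libraries from 63.3 over 93.9 to 135.6 CPM. The groups overlapped only through BDL 4, which rests on 13 counts and lay below sham 6. The log2 fold change was 1.84 ± 0.35 (edgeR adjusted p = 6.65e-04), which is 3.58-fold, with 1.79 ± 0.26 in suffix 24 and 1.82 ± 0.55 in suffix 26.

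miR-409-3p (Mir409, 109743158 to 109743236, in an intron of Mirg) had 687, 141, 413, 25, 284 and 133 counts in BDL and 233, 114, 88, 54, 94 and 135 in sham. In CPM the BDL libraries ran from 143 over 190.5 to 253.4, and the sham libraries from 46.4 over 56.6 to 205.7. Sham 6 lay above 4 of the BDL libraries, and the other sham libraries lay below all of them. The log2 fold change was 1.26 ± 0.38 (edgeR adjusted p = 0.013), with 1.36 ± 0.31 in suffix 24 (adjusted p = 0.00687). In suffix 26 the log2 fold change was 1.19 ± 0.56, which did not pass the threshold (adjusted p = 0.103), nor did it with no count filter (1.17, adjusted p = 0.0518). mmu-miR-409-5p, the other arm, had 14 counts in BDL and 6 in sham, and the ratio of the 3p to the 5p arm was 120 in both groups. In the hairpin of miR-382 the 5p arm dominated, with 608 counts against 8 in BDL and 477 against 18 in sham. In the hairpin of miR-127 the 3p arm dominated, with 833 counts against 24 in BDL and 1305 against 41 in sham.

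**Figure D4:**
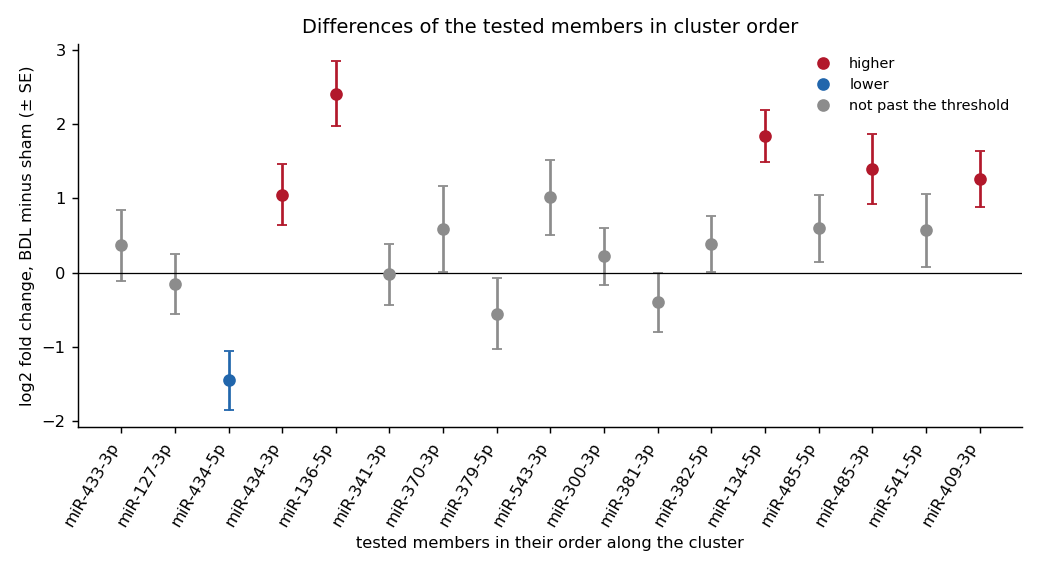
Log2 fold change (BDL minus sham, y axis) with its SE for the 17 tested members, in their order along chromosome 12 (x axis); red points are higher, blue lower and grey not past the threshold. Values run from -1.45 for miR-434-5p to 2.41 for miR-136-5p, both antisense to Rtl1.

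The 11 other tested members had log2 fold changes between -0.55 and 1.01. miR-127-3p, the most counted member in sham, had 55.9 to 222.5 CPM in sham (median 109.1) and 59.5 to 240.4 CPM in BDL (median 91.8). The ranges overlapped nearly throughout, and the log2 fold change was -0.15 ± 0.40 (adjusted p = 0.797). miR-541-5p (0.57 ± 0.49, adjusted p = 0.382), mmu-miR-382-5p (0.39 ± 0.38, adjusted p = 0.441) and mmu-miR-433-3p (0.37 ± 0.48, adjusted p = 0.573) did not pass the threshold either. The nearly alike miR-381-3p and miR-300-3p had -0.40 ± 0.40 and 0.22 ± 0.38 (adjusted p = 0.448 and 0.682). mmu-miR-543-3p had the highest value of the 11, at 1.01 ± 0.50 (adjusted p = 0.117), with 7.7 to 40 CPM in BDL and 1.92 to 16 CPM in sham. In the intron of Rian, mmu-miR-370-3p had 0.59 ± 0.58 (adjusted p = 0.447) and mmu-miR-341-3p -0.02 ± 0.41 (adjusted p = 0.972). miR-379-5p, the first hairpin of the block that ends with miR-410, had -0.55 ± 0.48 (adjusted p = 0.389).

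By place, the 5 tested members at the Rtl1 end gave 2 higher and 1 lower, the 2 in Rian none, and the 10 in the block from Mir379 to Mir410 gave 3 higher and none lower. With 2 to 10 members each, and 24.6% higher and 18.2% lower over all names tested, these counts set no block apart. The medians of the log2 fold change were 0.37, 0.28 and 0.58. The last block held 71.1% of the cluster's counts, the Rtl1 end 27.1% and Rian 1.74%. The 3 higher members of the last block lie within Mirg in the GENCODE annotation (release M21, GRCm38). So do miR-382-5p, miR-485-5p and miR-541-5p, which were tested and did not pass the threshold. Whether reads were counted by strand is not given in the sources used here, so for members antisense to Rtl1 reads from its own strand cannot be told apart.

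Among the untested members the 3 with the most counts were mmu-miR-411-5p, mmu-miR-494-3p and mmu-miR-495-3p. miR-411-5p had 31 counts in BDL and 63 in sham, and miR-495-3p 39 and 44. miR-494-3p had 45, 11, 6, 0, 12 and 0 counts in BDL and 6, 4, 4, 0, 4 and 0 in sham, a sum of 74 against 18. The summed counts of the 28 untested members were 499 in BDL and 437 in sham. mmu-miR-376a-3p had no count in any library, and a 0 allows up to 3 counts only for a library taken by itself. mmu-miR-154-5p, mmu-miR-299a-5p, mmu-miR-380-3p and mmu-miR-654-3p were counted in BDL 1, the deepest library, and in no other. mmu-miR-337-3p had 1 count, in BDL 2. A further list of 64 names from the same locus held 972 counts in all. None of them passed the filter; the highest, miR-299a-3p, had 107 counts.

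The count filter, applied within each code suffix, kept 19 members in suffix 24 and 13 in suffix 26. In suffix 24, 3 of 19 were higher and 0 lower (0 lower also at an unadjusted p under 0.05; edgeR), against 18.4% higher and 12.9% lower of all names. In suffix 26, 3 of 13 were higher and 1 lower, against 20.4% and 18.1%. The test of the difference in effect between the suffixes called 0 of the 17 members by edgeR, where 2.35% of all names were called. At an unadjusted p under 0.05 it gave 0 of 17 by edgeR and 2 of 17 by limma-voom. By DESeq2, run without the count filter, it gave 1 of 44. Neither limma-voom nor DESeq2 called a member after adjustment. miR-434-5p had the largest such difference by size, -1.44 on the log2 scale (adjusted p = 0.273).

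**Figure D5:**
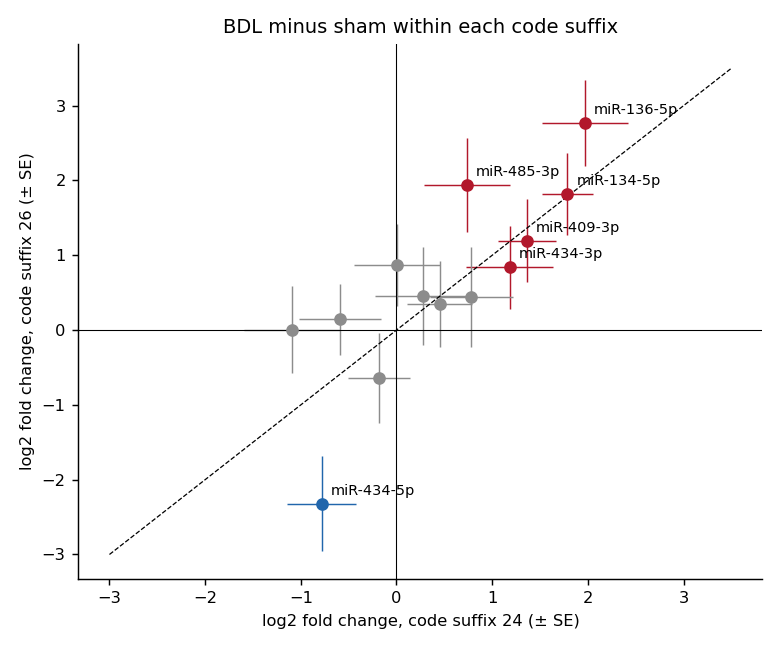
Log2 fold change with SE within the libraries of code suffix 24 (x axis) and 26 (y axis) for the 13 members tested in both; colours as for the order along the cluster, and the dashed line marks equal values. The 6 members past the threshold over all libraries have the same sign in both, and miR-434-5p lies at -0.78 and -2.32.

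Markers of cells known to express this cluster, or that could release vesicles into plasma, moved in several directions beside it. Of 3 tested neural markers 1 was higher and 1 lower (median log2 fold change 0.71), and their list summed to 1838 to 2819 CPM in BDL and 3483 to 6214 CPM in sham. The higher one was miR-129-5p (1.79 ± 0.32, edgeR adjusted p = 3.77e-04) and the lower one miR-128-3p (-1.20 ± 0.23, edgeR adjusted p = 5.73e-04). In all libraries together miR-128-3p had 75176 counts, miR-129-5p 1777 and the neuronal miR-124-3p 8. The list's sum therefore mostly follows miR-128-3p. Of 4 tested striated muscle markers 0 were higher and 3 lower (median -1.53; 639.4 to 1741 CPM in BDL and 1150 to 2128 in sham). Of 5 fibroblast and stellate cell markers 2 were higher and 2 lower (median -0.89; 1102 to 2225 and 2451 to 3360 CPM). Hepatocyte markers gave 2 higher of 3 (median 3.37) and erythroid markers 2 lower of 4 (median -1.17). Leukocyte markers gave 3 lower of 4 (median -1.72), and the platelet and endothelial pair was lower (median -1.53). The islet marker was lower as well (-0.73). Over all names tested, 24.6% were higher and 18.2% lower. The part of these shifts in the members' values was not tested. In plasma, fewer vesicles from a cell type and less of a microRNA per vesicle cannot be told apart.

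GC content overlapped between called and other members. It was 36.4 to 59.1% (median 54.5%) in the 5 higher members and 44 to 68.2% (median 50%) in 10 members not past the threshold with a sequence. The median was 50% over 290 tested names with a sequence in the table.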

How the data were processed

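Small RNA was measured in 6 BDL and 6 sham libraries of plasma vesicles. The authors deposited whole-number counts for each microRNA name, with no sign of scaling in the values. Reads were handled with cutadapt and STAR, per the submitters' processing notes; neither their versions nor the build or annotation used is stated there. The 67 names of other species were left out of library sizes and tests.

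Counts of 1915 mouse names were filtered by group (filterByExpr), scaled by TMM and tested with edgeR 4.0.16 (R 4.3.3), quasi-likelihood F test, with Benjamini-Hochberg adjustment over all 341 names that passed; the threshold was an adjusted p of 0.05. The procedure was tested on simulated counts, drawn independently and with the same dispersion (spread beyond counting error) for all names. Differences in dispersion between names, and correlation between members or libraries, were not simulated. Each SE was derived as |log2 fold change| over √F, and log2 CPM values carry a prior count of 2. CPM uses TMM-scaled library sizes. Members named with values are all 17 tested and the 3 untested with the most counts; other names were chosen after their values were seen. Members, marker and locus lists were chosen with earlier results of these data known. Alternatives were other scalings (DESeq2 1.42.0 size factors, total counts), other filters, DESeq2, limma-voom (limma 3.58.1), a block, code suffix terms and subsets, sums per first digit, and leaving out each library. Positions and gene annotation were taken from RefSeq (GRCm38.p6) and GENCODE M21 and may differ from the build the authors used.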

Additional observations from a re-analysis of the deposited data

Results flagged for a closer look

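In 36 groups of 6 values (17 members and the summed share, in BDL and sham), 9 held a library far from the other 5. Chance gives about 1 in 20 for a single group of independent values. These groups share their libraries, so 9 of 36 cannot be judged against that rate. BDL 4, the shallowest library, accounts for 8 of the 9. Its log2 CPM was 0.21, which is a count of 0, for miR-300-3p, miR-341-3p, miR-381-3p, miR-433-3p, miR-434-5p and miR-485-5p, and 3.19, a count of 1, for miR-382-5p and miR-434-3p. In that library a count of 0 allows up to 24 CPM. The remaining one was miR-409-3p in sham 6, at 7.69 log2 CPM, well above the other 5 sham libraries.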

How the results depend on the processing

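Of 387 values of the 17 members under other settings, 350 kept their direction and their side of the threshold, 31 lost the call and 6 changed sign; none of the sign changes was in a member past the threshold. The sign changes were miR-127-3p (0.15) and miR-379-5p (0.0073) in suffix 26, miR-341-3p with total counts only (0.031) and without sham 1 or 2 (range over single libraries -0.32 to 0.20), and miR-433-3p without BDL 2 (range -0.11 to 0.48). Members called higher numbered 2 with no count filter and 3 in each of suffix 24 and suffix 26, and 3 to 5 without single libraries. Members called lower numbered 0 in suffix 24 and 1 without any single library. Over all names, 54 were higher in suffix 26, where fewer could be tested, against 84; without single libraries 65 to 89 were higher and 54 to 70 lower, against 62 lower. With miR-122-5p, miR-486a-5p and miR-486b-5p left out of the totals, the difference in summed share became 0.173 percentage points instead of 0.0477, on a smaller total; it was 0.0366 to 0.0574 without single libraries. The arm difference of miR-434 was 2.02 and 2.87 within suffix 24 and 26 (exact p = 0.1 each, the smallest possible) and 2.26 to 2.61 without single libraries; that of miR-485 was 0.69 to 1.40 without single libraries, 0.05 within suffix 24 and 2.27 within suffix 26. Summing the libraries per first digit ended the call of miR-485-3p (1.03, adjusted p = 0.081). DESeq2's size factors moved the median of all names by -0.14.

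The sample numbers were not found to pair the libraries: same-numbered deviations correlated between -0.0886 and 0.311, and 2 of 6 BDL libraries correlated best with their own number. With the replicate block, 4 members were higher and 1 lower; miR-434-3p lost its call (0.94, adjusted p = 0.105). Low counts limit the 28 members below the filter, and depth limits every 0 in BDL 4.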

Other observations

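Within groups, the tested members tended to vary together from library to library. After the group means were removed, the median over 136 pairs of the 17 members was a Pearson r of 0.40 and a Spearman rho of 0.41 across 12 libraries, against 0.03 and 0.03 over pairs of all 341 tested names. Without BDL 4 the members' medians were 0.42 and 0.39. All pairs share the same libraries, depth and scaling, and these values are given as a description.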
